A study of Mus musculus with 16 samples.

Results

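Collagens, laminins and the molecules that tie them together form the extracellular matrix of the gonad. The 59 genes described here are every gene of the array annotation whose symbol is that of a collagen chain (44 genes) or a laminin chain (10 genes), together with Nid1, Nid2, Hspg2, Agrn and Fn1. They were taken from 19532 annotated genes, and each was read from 1 probe, the one at the detection limit in the fewest samples and, among equals, the one with the highest mean ratio. They were followed in whole gonads of mouse embryos that were female or male and either heterozygous (Nanos3+/-) or knockout (Nanos3-/-) for Nanos3, the gene of an RNA-binding protein without which early germ cells are lost. Each of these 4 groups holds 1 sample per embryonic day (E), taken at E12.5, E13.5, E14.5 or E15.5. A group's 4 days are thus its replicates (n = 4), and 16 samples were measured. By its title each sample combines replicates 1 and 2. All controls carry 1 disrupted copy of Nanos3, no wild-type gonads were analysed here, and the strain, the structure of the allele and the number of gonads per sample are not given in the sources used here.

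Basement membranes are thin sheets in which a network of type IV collagen and a network of laminin trimers (an alpha, a beta and a gamma chain each) are joined by nidogens and by the heparan sulfate proteoglycans perlecan and agrin. In the fetal testis, Sertoli cells enclose the germ cells in cords, and a basement membrane laid down with the peritubular cells bounds each cord. The fetal ovary keeps its germ cells in nests with less sharply bounded outlines. Fibril-forming collagens such as types I and III give connective tissue its tensile strength, and type VI collagen forms beaded filaments close to cells.

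The deposited values are linear ratios centred for each probe, so a log2 ratio says how one gene moved between samples and not how abundant it was beside another gene. Arrays were brought to the same 75th percentile, and differences were tested with limma over the 16581 genes above the detection limit in at least 4 samples. A gene counts as called where its p, adjusted by the method of Benjamini and Hochberg, was under 0.05. Differences are log2 values ± standard error from limma, over 4 pairs of samples of the same day, and where 4 values follow each other they stand for the days in order, from E12.5 to E15.5. Of the 59 genes 56 were tested, and 53 of them were never at the limit. Col10a1, Col12a1 and Col28a1 were at the limit in nearly all samples.

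Genes that mark sex and germ cells were compared with the labels first. Xist lay between 1.48 and 2.73 (log2 ratio) in the female samples and between -6.73 and -4.43 in the male ones, although the description field of every female sample names male gonads. The mean log2 ratio of 8 germ cell genes, Ddx4 among them, ran from 1.25 to 3.27 in heterozygous ovaries, 2.59 to 3.89 in heterozygous testes, -3.53 to -2.52 in knockout ovaries and -4.01 to -2.76 in knockout testes. For Nanos3 itself the means were 2.27 in heterozygous and -0.28 in knockout testes, and -0.06 and -0.28 in ovaries. Whether its probe lies in the deleted part is not known. In whole gonads, fewer cells of a type and less RNA per cell cannot be told apart.

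Testis and ovary differed in a minority of these genes, and most of those that differed were higher in the testis. In heterozygotes 17 of the 56 genes were called, 14 higher and 3 lower in males, where 23.8% of all genes tested were called (11.7% higher and 12.1% lower). In knockouts 18 were called, 14 higher and 4 lower, where 18% of all genes were called (8.99% higher and 9.05% lower). The members' shares of 30.4% and 32.1% lie above these by a modest margin, through the higher calls. The median difference of the members was 0.31 in heterozygotes and 0.34 in knockouts, beside 0.04 and 0.03 for all genes tested. The values of the 4 male and 4 female samples did not overlap for 12 members in heterozygotes (21.4%, beside 15.9% of all genes tested) and for 15 in knockouts (26.8%, beside 19.9%). Called higher in males in both genotypes were 12 genes (85.7% of each list of 14, with the overlap over all genes not counted), namely Col4a1, Col4a2, Col4a3, Col4a4, Lamc3, Lama4, Col15a1, Col18a1, Col14a1, Col9a3, Col8a1 and Col6a1. Col4a5 and Col6a5 were called lower in males in both. Of the 12, Col9a3, Lamc3 and Col4a1 were also called in both genotypes under all 11 other settings tried, and Col4a3 under all 10 that kept it. In heterozygotes Col6a1 was called in 3 of the 11, Col6a5 in 4 and Col8a1 in 5.

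The type IV chains, which form the collagen network of basement membranes, split by chain. Of the 6 chains 4 were higher and 1 was lower in testes, in both genotypes. Col4a1, which with Col4a2 makes the network found in nearly every basement membrane, had log2 ratios of 0.33, 0.30, 0.77 and 0.63 in heterozygous testes and of -0.79, -0.70, -0.69 and -0.67 in heterozygous ovaries. Knockout testes gave 0.85, 0.97, 1.19 and 1.14 and knockout ovaries -0.21, -0.30, -0.27 and -0.32. All male samples thus lay above all female ones, and each group moved little between days. The difference was 1.22 ± 0.15 in heterozygotes (2.33-fold, adjusted p = 0.000767) and 1.31 ± 0.15 in knockouts (adjusted p = 0.000377). Col4a2 was higher in testes by 0.75 ± 0.17 and 0.84 ± 0.17 (adjusted p = 0.0128 and 0.00846). It was not called in either genotype without E14.5, nor without E15.5.

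Col4a3 and Col4a4 encode chains of the network known from the mature kidney filter. Col4a3 read 0.52, 0.27, 0.99 and 1.25 in heterozygous testes and -0.79, -0.79, -0.57 and -0.53 in heterozygous ovaries. Its difference was 1.43 ± 0.17 in heterozygotes and 1.57 ± 0.17 in knockouts. The heterozygous ovaries of E12.5 and E13.5 and the knockout ovary of E12.5 were at the detection limit, so the difference may be larger. It was 0.62 in heterozygotes when all probes were averaged, an average that includes a probe at the limit in all 16 samples. Col4a4 differed by 0.70 ± 0.19 and 0.62 ± 0.19 on the probe used, and by 2.51 and 2.39 on its other probe. The 2 probes have the same direction and differ in size by over 1.5 times, and on the probe used the call was lost in 5 of 11 other settings in heterozygotes and in 8 of 11 in knockouts.

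Col4a5 and Col4a6, the X-linked chains, went the other way or were not called. Col4a5 read 0.22, -0.03, 0.27 and 0.54 in heterozygous ovaries and -0.38, -0.88, -0.36 and -0.63 in heterozygous testes. The 2 sets did not overlap, and the difference was -0.81 ± 0.16 (adjusted p = 0.00627), with -0.88 ± 0.16 in knockouts. Col4a6 differed by -0.60 ± 0.22 (adjusted p = 0.0746) and -0.34 ± 0.22 (adjusted p = 0.328), and its other probes gave 0.21 and -0.84 in heterozygotes, so its direction is not settled.

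Type IV genes lie head to head in pairs in the genome, and the windows around the starts of Col4a1 and Col4a2 and of Col4a5 and Col4a6 are shown. The RefSeq windows (build GRCm38.p6) run from 250 bases before the start to 50 after it. The starts of Col4a1 (chr8:11312777-11313076, minus strand) and Col4a2 (chr8:11312555-11312854, plus strand) lie 21 bases apart and their windows share 78 bases. Those of Col4a5 (chrX:141475169-141475468, plus strand) and Col4a6 (chrX:141474027-141474326, minus strand) lie 1343 bases apart. Capitals mark the letters CCAAT and GGGCGG, known as motifs of general promoter factors, or their reverse complements ATTGG and CCGCCC.
Col4a1: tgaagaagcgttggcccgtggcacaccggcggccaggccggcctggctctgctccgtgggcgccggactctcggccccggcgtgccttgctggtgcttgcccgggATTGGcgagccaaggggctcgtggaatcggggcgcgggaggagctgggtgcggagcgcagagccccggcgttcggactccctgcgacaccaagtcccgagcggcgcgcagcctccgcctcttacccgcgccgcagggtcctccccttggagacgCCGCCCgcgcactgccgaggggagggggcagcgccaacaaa
Col4a2: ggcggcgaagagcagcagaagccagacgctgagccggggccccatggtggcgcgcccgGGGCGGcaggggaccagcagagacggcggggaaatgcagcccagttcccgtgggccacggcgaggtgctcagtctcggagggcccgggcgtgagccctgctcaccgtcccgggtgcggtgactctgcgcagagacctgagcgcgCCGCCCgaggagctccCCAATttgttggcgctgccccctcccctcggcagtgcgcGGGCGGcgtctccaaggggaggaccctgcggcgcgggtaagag
Col4a5: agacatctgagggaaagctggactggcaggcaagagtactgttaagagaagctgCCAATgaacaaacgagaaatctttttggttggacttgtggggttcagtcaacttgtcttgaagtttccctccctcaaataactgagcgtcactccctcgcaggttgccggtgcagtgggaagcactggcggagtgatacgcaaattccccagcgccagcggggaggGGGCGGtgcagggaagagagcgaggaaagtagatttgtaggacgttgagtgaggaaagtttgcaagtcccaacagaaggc
Col4a6: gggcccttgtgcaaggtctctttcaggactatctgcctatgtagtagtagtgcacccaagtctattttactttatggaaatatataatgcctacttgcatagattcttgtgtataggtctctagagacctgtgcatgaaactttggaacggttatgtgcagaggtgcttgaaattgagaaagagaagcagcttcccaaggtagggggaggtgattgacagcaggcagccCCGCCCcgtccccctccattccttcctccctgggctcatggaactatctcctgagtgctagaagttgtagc
Col4a1, Col4a2 and Col4a5 hold 1 CCAAT each and Col4a6 holds none, while GGGCGG occurs 3 times in Col4a2 and once in each of the others. The GGGCGG of Col4a1 and the last of the 3 in Col4a2 are the same stretch of the 78 shared bases, read on opposite strands. Of the 43 members with a window 15 held CCAAT (34.9%) and 28 held GGGCGG (65.1%), where 37.4% and 35.7% of all 32851 windows did. These windows outnumber the 19532 annotated genes of the array from which the members were taken, so the shares come from unlike sets. A match of letters is a description and not a site.

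**Figure D1:**
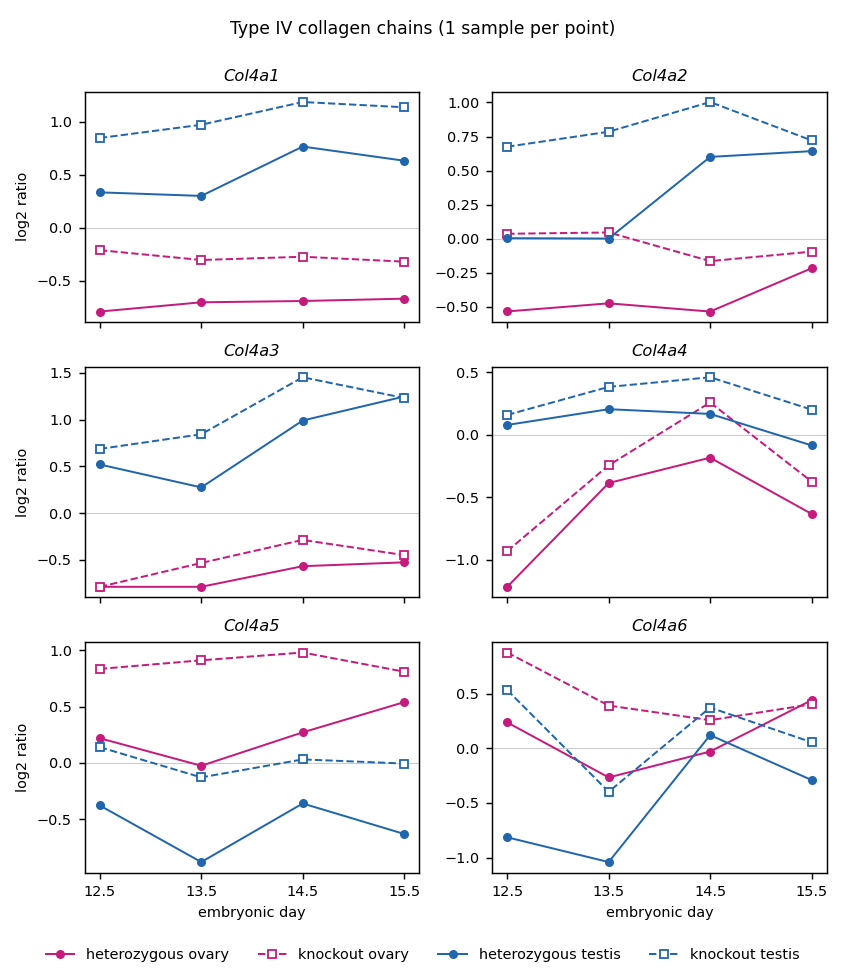
Log2 ratio of the 6 type IV collagen chains (vertical axis, scale set for each gene) by embryonic day (horizontal axis) in the 4 groups, each point 1 sample and lines joining the days of a group. For Col4a1 and Col4a3 all testis samples lie above all ovary samples, and for Col4a5 each genotype's ovary samples lie above its testis samples.

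Among the laminin chains the testis stood out through Lamc3 and Lama4. Lamc3, a gamma chain, read 0.41, 1.03, 0.95 and 2.15 in heterozygous testes and -1.20, -1.60, -1.25 and -1.07 in heterozygous ovaries. Every testis value was above every ovary value, with differences of 2.41 ± 0.28 in heterozygotes (5.33-fold, adjusted p = 0.000536) and 2.33 ± 0.28 in knockouts. Its other probes gave smaller differences of the same direction, 1.08 and 0.34 in heterozygotes and 0.88 on both in knockouts, and 1 of them was at the limit in 8 samples. Lama4, the alpha chain known from blood vessel walls, was higher in testes by 0.73 ± 0.19 and 0.96 ± 0.19, and of its 3 other probes the one with the opposite sign in heterozygotes was at the limit in 10 samples.

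Lama3, an alpha chain of epithelial laminins, was called in heterozygotes (1.30 ± 0.33, adjusted p = 0.0212), while its value was 0.71 ± 0.33 in knockouts (adjusted p = 0.182). On its other probe the values were 0.29 and 0.24. Lamb2, a beta chain of mature basement membranes, was lower in heterozygous testes, at -1.25, -1.31, -0.63 and -0.30 against -0.51, 0.29, 0.89 and 0.78 in ovaries. It was lower on each of the 4 days and the groups overlapped (-1.24 ± 0.19, adjusted p = 0.00238). In knockouts the difference was -0.42 ± 0.19 (adjusted p = 0.179).

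Lamb3, the beta chain that pairs with Lama3 in epithelia, was called lower in knockout testes (-1.65 ± 0.49, adjusted p = 0.0458), with -1.25 ± 0.49 in heterozygotes (adjusted p = 0.0967). Lama5, an alpha chain of most epithelial basement membranes, was lower in knockout testes by a small amount (-0.41 ± 0.12) and read -0.35 ± 0.12 in heterozygotes (adjusted p = 0.0542). Lama1, Lama2, Lamb1 and Lamc1 were called in neither genotype, with differences from -0.57 ± 0.22 for Lamc1 in knockouts to 0.79 ± 0.36 for Lama2 in knockouts. Lamb1 and Lamc1, the chains found in most laminins, differed by 0.23 ± 0.23 and -0.35 ± 0.22 in heterozygotes.

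The molecules that link the networks were mostly not called. Of Nid1, Nid2, Hspg2 (perlecan), Agrn (agrin) and Fn1 (fibronectin) none was called in heterozygotes, where the differences ran from -0.34 ± 0.17 for Agrn to 0.34 ± 0.13 for Nid1. In knockouts Nid1 was higher in testes (0.44 ± 0.13, adjusted p = 0.0442). The multiplexins, proteoglycan collagens of basement membrane zones, were both higher in testes in both genotypes. Col15a1 differed by 1.12 ± 0.22 and 1.0 ± 0.22, and Col18a1, the source of endostatin, by 1.06 ± 0.25 and 1.72 ± 0.25.

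**Figure D2:**
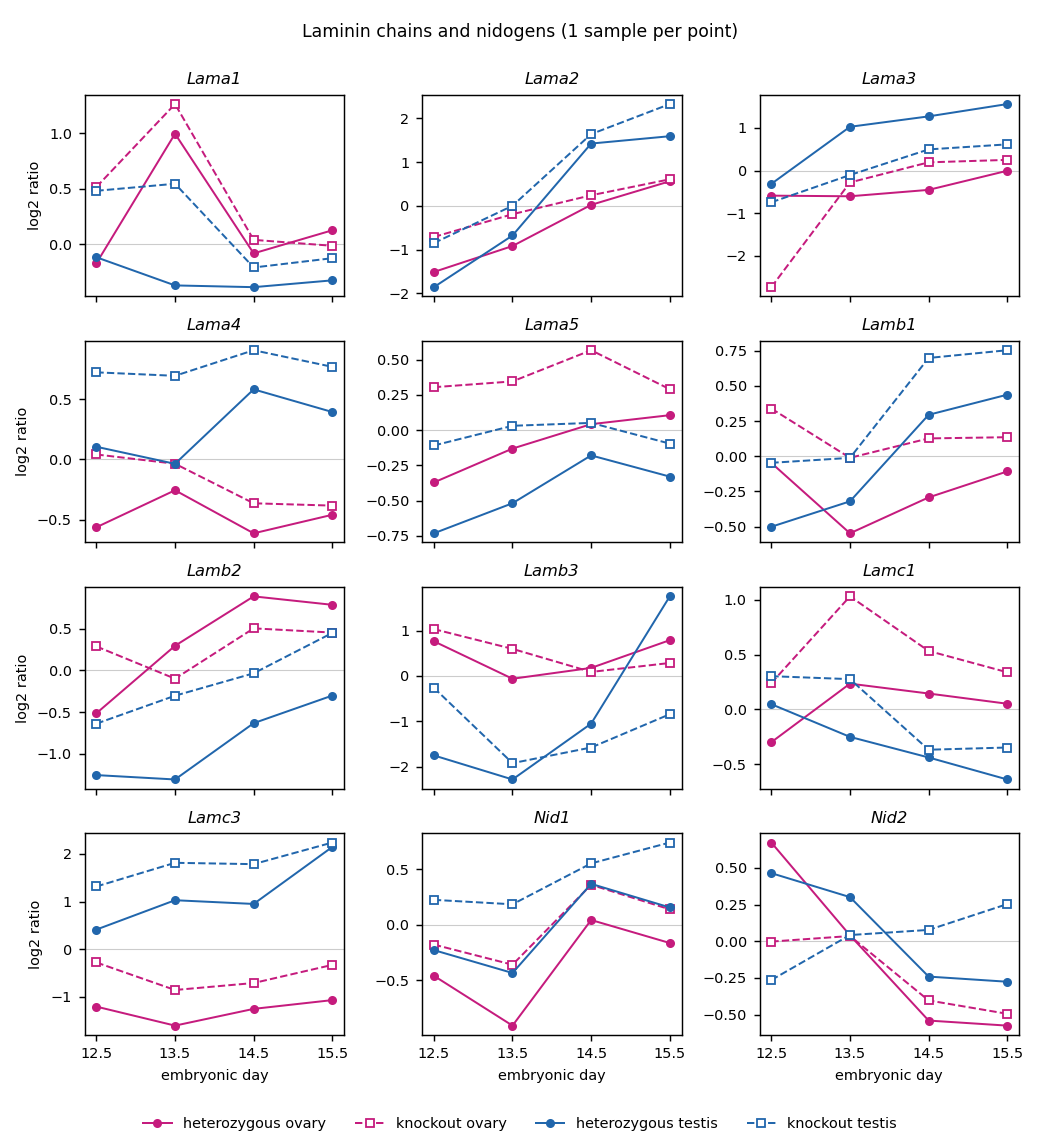
Log2 ratio of the 10 laminin chains and the 2 nidogens (vertical axis, scale set for each gene) by embryonic day in the 4 groups, each point 1 sample. Lamc3 separates all testis from all ovary samples, and Lamb3 in heterozygous testes runs from -1.75 at E12.5 to 1.75 at E15.5.

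The largest sex difference among the members was that of Col9a3, a chain of the fibril-associated type IX collagen best known from cartilage. Col9a3 read 1.60, 1.60, 0.74 and 0.87 in heterozygous testes and -5.41, -3.32, -4.39 and -4.53 in heterozygous ovaries. Knockout testes read 2.02, 2.30, 1.70 and 1.03 and knockout ovaries -4.66, -5.09, -4.77 and -4.85. The differences were 5.62 ± 0.49 (49.0-fold, adjusted p = 0.000106) and 6.61 ± 0.49 (97.5-fold, adjusted p = 3.29e-05). The other type IX chains had smaller differences. Col9a1 was called in knockouts (3.34 ± 0.66) and not in heterozygotes (1.58 ± 0.66, adjusted p = 0.116). Col9a2 was called in neither (0.77 ± 0.65 and 1.23 ± 0.65). Of 4 measured cartilage markers, Cnmd (chondromodulin) was higher in testes (3.42 ± 0.25 and 3.69 ± 0.25) and 1 was lower in each genotype. The mean log2 ratio of the 4 ran from -0.69 to 0.50 in heterozygous ovaries, -1.04 to -0.14 in knockout ovaries, 0.14 to 0.39 in heterozygous testes and -0.03 to 0.50 in knockout testes. Its part in the type IX values was not tested.

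Other collagens with a sex difference lie outside the basement membrane. Col14a1, a fibril-associated chain of connective tissue, was higher in testes (1.49 ± 0.27 and 1.15 ± 0.27), as was Col8a1, a short-chain collagen of vessel walls (1.61 ± 0.48 and 1.79 ± 0.48). Col5a3, a type V chain, was called in heterozygotes (1.60 ± 0.38) and had 0.96 ± 0.38 in knockouts (adjusted p = 0.121). Col6a5, a type VI chain, was lower in testes and was the largest difference in that direction. It read -0.09, 1.78, 0.42 and 2.51 in heterozygous ovaries and -1.85, -1.02, 0.17 and 1.34 in heterozygous testes, which overlapped, and 0.16, 2.38, 1.55 and 2.25 in knockout ovaries and -2.46, -0.98, -2.49 and -2.57 in knockout testes, which did not. The differences were -1.50 ± 0.42 (adjusted p = 0.0314) and -3.71 ± 0.42 (13.1-fold, adjusted p = 0.000349).

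Of the main fibril-forming chains Col1a1, Col1a2, Col2a1, Col3a1, Col5a1, Col5a2, Col11a1 and Col11a2, none was called in either genotype. Their differences ran from -0.13 ± 0.29 for Col11a2 to 1.65 ± 0.71 for Col2a1, both in knockouts. The abundant connective tissue chains Col1a1 and Col3a1 had 0.12 ± 0.27 and 0.24 ± 0.18 in heterozygotes. Col19a1, a fibril-associated chain, was at the detection limit in all 8 testes and in the knockout ovary of E15.5. It was at least 1.40-fold higher in heterozygous ovaries, a difference that was not called (adjusted p = 0.331).

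**Figure D3:**
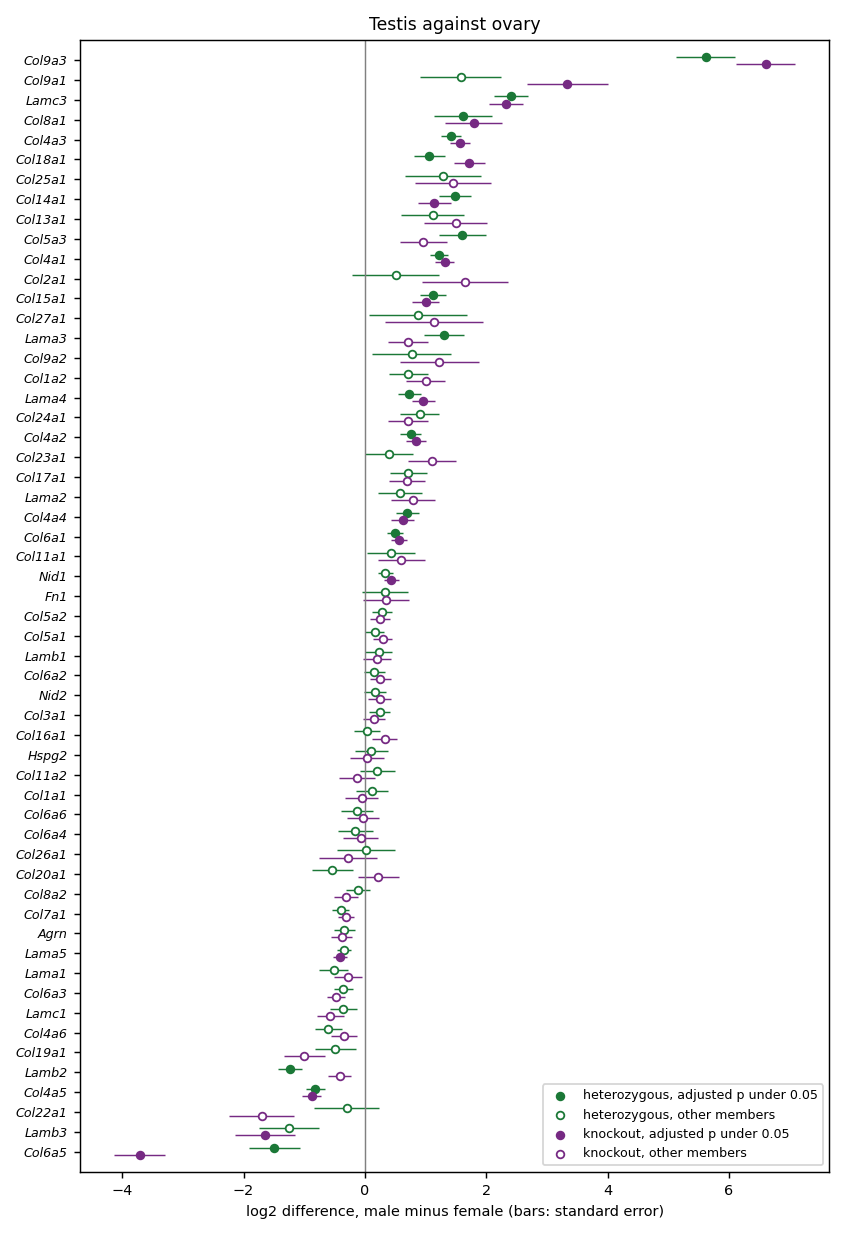
Difference between testis and ovary (horizontal axis, log2, male minus female) for the 56 tested genes (vertical axis, ordered by the mean of both genotypes) in heterozygous and knockout gonads, with standard errors as bars and filled points for genes called at an adjusted p under 0.05. Col9a3 at 5.62 and 6.61 and Col6a5 at -1.50 and -3.71 form the ends of the order.

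Markers of several cell types were read in the same comparison, where 23.8% of all genes were called in heterozygotes and 18% in knockouts. Those of Sertoli, pre-granulosa and fetal Leydig cells mark the gonad of 1 sex, so their direction was set by the choice of list. Of 7 Sertoli cell markers 6 were higher in testes in each genotype, and their mean log2 ratio ran from -4.26 to -3.45 in heterozygous ovaries and 0.86 to 1.37 in heterozygous testes. Of 7 pre-granulosa markers 6 were lower in testes in each genotype, with means of 0.85 to 1.36 in heterozygous ovaries and -2.20 to -1.90 in heterozygous testes. All 4 tested fetal Leydig cell markers were higher, with means of -2.59 to -2.34 and 0.68 to 4.82. Of 5 peritubular and smooth muscle markers 1 was higher in heterozygous testes, Acta2 (2.33 ± 0.31), and 2 in knockout testes, while the differences of the 5 ran down to -0.94 and -0.98. Of 4 interstitial markers 3 were higher in testes in each genotype, with median differences of 0.96 and 1.24 and means of -0.83 to -0.47 in heterozygous ovaries and 0.28 to 0.61 in heterozygous testes. Of 8 endothelial markers 0 were called in heterozygotes and 1 in knockouts in the limma fit, and their mean ran from -0.43 to 0.23 in heterozygous ovaries and -0.28 to 0.37 in heterozygous testes. The part of these cell types in the matrix differences was not tested.

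Knockout gonads of both sexes had higher levels of many matrix genes by small amounts. In ovaries 21 of the 56 members rose and 0 fell, where 33.8% of all genes were called (20.9% higher and 12.9% lower). In testes 28 rose and 1 fell, where 34.3% were called (21.7% higher and 12.6% lower). The members' share called was thus close to that of all genes in ovaries (37.5%) and above it in testes (51.8%). The called rises ran from 0.28 to 0.74 in ovaries, none of them 2-fold, and the members' median difference was 0.36 in ovaries and 0.42 in testes, beside 0.11 and 0.12 for all genes tested. Above the median of all genes lay 40 of 56 members in ovaries and 45 of 56 in testes. Groups did not overlap for 11 members in ovaries (19.6%, beside 13.4% of all genes tested) and for 7 in testes (12.5%, beside 16.6%).

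These calls rest on the scaling of the arrays, on the pairing and on single days. With the arrays as deposited 0 members were called in ovaries and 1 in testes (11 and 15 at an unadjusted limma p under 0.05, or 19.6% and 26.8%, beside 30.3% and 29.8% of all genes), although the members' median stayed positive at 0.24 and 0.31, beside 0.00 and 0.01 for all genes. Over all genes, the rises and falls went from 3465 and 2145 to 484 and 1817 in ovaries, and from 3598 and 2088 to 322 and 1612 in testes. Without pairing by day 1 and 0 members were called (11 and 14 at an unadjusted limma p under 0.05, or 19.6% and 25%, beside 21.3% and 21.1% of all genes), and leaving out E13.5 left 2 in each sex (3.57%, beside 9.35% and 13.3% of all genes).

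Rising in both sexes were 17 members, 81.0% of the ovary list and 60.7% of the testis list, with the overlap over all genes not counted. They are the type IV chains Col4a1 and Col4a5, the laminin chains Lama5, Lamb1 and Lamc3, Nid1 and Agrn, Col15a1, the fibril-forming chains Col1a1, Col3a1, Col5a1 and Col5a2, the main type VI chains Col6a1, Col6a2 and Col6a3, Col8a2 and Col16a1. Col4a1 rose by 0.44 ± 0.09 in ovaries and 0.53 ± 0.09 in testes, and the per-day values above show no overlap between genotypes of a sex. Col4a5 rose by 0.63 ± 0.13 and 0.57 ± 0.13. Col4a2 rose in testes (0.48 ± 0.14) and was at 0.40 ± 0.14 in ovaries (adjusted p = 0.0554), Col4a4 rose in ovaries (0.28 ± 0.08) and Col4a6 in testes (0.65 ± 0.19). Col4a3 was called in neither sex (0.15 ± 0.12 and 0.30 ± 0.12).

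Laminin chains followed the same range. Lamc3 had the largest called rise in ovaries, from -1.20, -1.60, -1.25 and -1.07 to -0.28, -0.85, -0.71 and -0.33 (0.74 ± 0.15, adjusted p = 0.00866), and rose by 0.65 ± 0.15 in testes. Lama5 rose by 0.47 ± 0.11 and 0.41 ± 0.11, and Lamb1 by 0.40 ± 0.09 and 0.37 ± 0.09. Lamc1 was called in ovaries (0.50 ± 0.11), and Lama2, the muscle and mesenchyme alpha chain (0.66 ± 0.17), Lama4 (0.51 ± 0.12) and Lamb2 (0.74 ± 0.19) in testes. Lama1 was called in neither sex (0.23 ± 0.17 and 0.47 ± 0.17). Lama3 had -0.82 ± 0.40 in testes, lower on 4 of 4 days, and did not pass the test (adjusted p = 0.139).

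Linking molecules were split. Nid1 rose by 0.36 ± 0.10 and 0.46 ± 0.10 and Agrn by 0.39 ± 0.10 and 0.36 ± 0.10, although another Agrn probe differed in sign in ovaries. Hspg2 was called in ovaries (0.52 ± 0.16) and was at 0.46 ± 0.16 in testes (adjusted p = 0.0531). Fn1 differed by -0.02 ± 0.11 and 0.00 ± 0.11, with 95% intervals from -0.27 to 0.23 and from -0.26 to 0.25. Nid2 had -0.12 ± 0.21 and -0.03 ± 0.21 over all days.

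In connective tissue, Col1a1 rose by 0.59 ± 0.13 and 0.42 ± 0.13 and Col3a1 by 0.50 ± 0.11 and 0.40 ± 0.11. Col5a1 rose by 0.41 ± 0.11 and 0.54 ± 0.11, Col5a2 by 0.48 ± 0.10 and 0.45 ± 0.10, and Col6a3 by 0.65 ± 0.10 and 0.53 ± 0.10. Col16a1, a fibril-associated chain, read -0.50, -0.93, -0.74 and 0.14 in heterozygous and -0.14, 0.40, 0.31 and 0.97 in knockout testes (0.89 ± 0.17), and rose by 0.60 ± 0.17 in ovaries. Col23a1, a membrane-spanning chain, had the largest called rise in testes (0.93 ± 0.19). Col11a1 was called in testes (0.57 ± 0.19). Among its other probes, 1 at the limit in 12 samples differed in sign (-0.36) and 1 never at the limit gave 0.49.

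The single called fall was that of Col6a5 in testes (-1.78 ± 0.57, adjusted p = 0.0403), which was -0.61 at E12.5 and -3.91 at E15.5 and was not called without E14.5 or without E15.5. Col9a1, Col5a3 and Col2a1 had large differences that were not called. Col9a1 in ovaries was at -1.86 ± 0.78 (adjusted p = 0.0986). Its difference was -4.37 on the first day and 1.42 on E14.5. Col5a3 was at -0.98 ± 0.59 in ovaries and -1.62 ± 0.59 in testes (adjusted p = 0.23 and 0.0619). Col2a1 in ovaries was at -0.96 ± 0.43 (adjusted p = 0.118), while its other usable probe gave 0.28.

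Whether the knockout effect differed between ovary and testis was tested directly, and it was called for 0 of the 56 members by limma, where 0.874% of all genes were called, and 6 members (10.7%) had an unadjusted p under 0.05, a smaller share than the 19.2% of all genes. The lowest adjusted p belonged to Col18a1, which was at -0.23 ± 0.12 in ovaries and rose by 0.43 ± 0.12 in testes (difference 0.66 ± 0.16, adjusted p = 0.104). Without E12.5, 4 members were called (7.14%), a share close to the 6.77% of all genes.

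**Figure D4:**
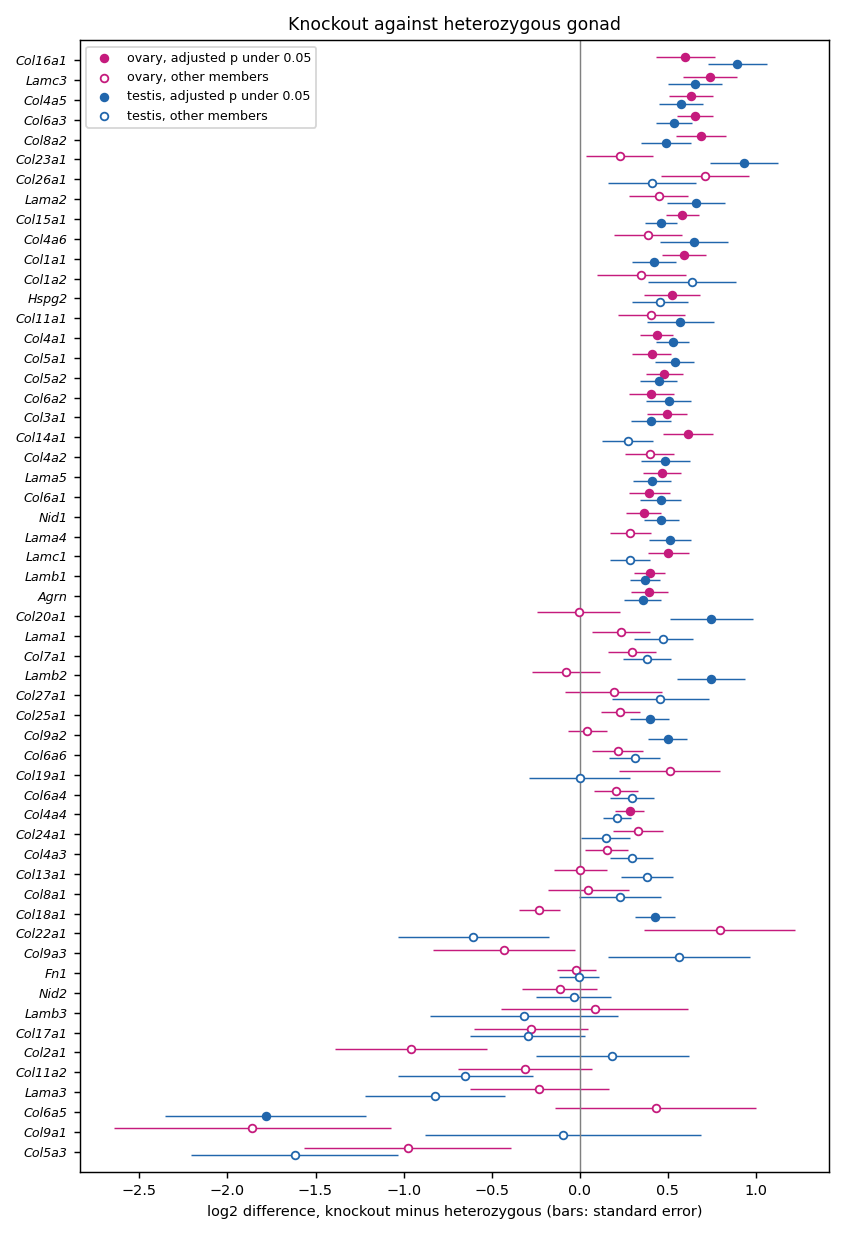
Difference between knockout and heterozygous gonads (horizontal axis, log2, knockout minus heterozygous) for the 56 tested genes (vertical axis, ordered by the mean of both sexes) in ovaries and testes, with standard errors as bars and filled points for genes called at an adjusted p under 0.05. The called rises lie between 0.28 and 0.93, and Col6a5 in testes at -1.78 is the single called fall.

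Some markers of somatic cells were called in the same comparison, where 20.9% of all genes rose in ovaries and 21.7% in testes. Lists of 4 to 8 markers are too short to be set against these shares. Of 8 endothelial markers 3 rose in knockout ovaries and 5 in knockout testes, with median differences of 0.26 and 0.48. Their mean log2 ratio was -0.43 to 0.23 in heterozygous and -0.51 to 0.37 in knockout ovaries. In testes it was -0.28 to 0.37 in heterozygotes and 0.13 to 0.72 in knockouts. Of 7 Sertoli cell markers 1 and 2 rose, of 7 pre-granulosa markers 2 and 3, of 5 peritubular and smooth muscle markers 2 and 2, and of 4 interstitial markers 1 and 2, and 0 of these fell. The mean of the interstitial markers was 0.28 to 0.61 in heterozygous and 0.76 to 0.94 in knockout testes, and that of the peritubular ones -1.15 to 1.1 and 0.04 to 1.17. All 4 tested erythroid markers rose in knockout ovaries, where their mean log2 ratio ran from 0.36 to 4.02, and from -1.26 to 0.18 in heterozygous ovaries. The part of these changes, and of the lower germ cell markers, in the matrix rises was not tested.

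Between E12.5 and E15.5 more members rose than fell in heterozygous gonads of both sexes and in knockout testes, with fibril-forming and type VI chains among those that rose. In heterozygous testes 17 members rose and 4 fell with the day, where a slope was called for 16.5% of all genes (10.7% upward and 5.82% downward). In heterozygous ovaries 8 rose and 3 fell, where 9.77% were called (6.44% upward and 3.33% downward). Knockout testes had 10 rising and 3 falling, where 5.82% were called (3.29% upward and 2.53% downward), and knockout ovaries 2 rising and 0 falling, where 3.36% were called (2.33% upward), a share of the members (3.57%) close to that of all genes. With the arrays as deposited, members split 21 up and 2 down in heterozygous testes and 13 and 1 in heterozygous ovaries, but all genes shifted the same way, from 1771 up and 965 down to 2956 and 278 and from 1068 and 552 to 2789 and 276. In knockout testes the members then split 7 and 1 and all genes 228 and 295 (546 and 419 otherwise). In knockout ovaries the members split 2 and 0 and all genes 366 and 93 (386 and 171 otherwise), and with quantile normalization 4 and 1 and 605 and 319. A slope was fitted as a straight line over the 4 days. Without E12.5 the calls in heterozygous ovaries came down to 0, beside 0.283% of all genes (10 at an unadjusted limma p under 0.05, or 17.9%, beside 19.5%). In heterozygous testes they came down to 2, or 3.57%, beside 2.30% of all genes (23 at an unadjusted limma p under 0.05, or 41.1%, beside 20.4%).

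Rising in heterozygotes of both sexes were Col1a1, Col3a1, Col6a2, Col6a3, Col8a2 and Lama2 (75% of the ovary list and 35.3% of the testis list, with the overlap over all genes not counted). Col1a1, the main chain of type I collagen, read -1.58, -0.73, 0.88 and 1.16 in heterozygous testes and -1.12, -0.71, 0.17 and 0.94 in heterozygous ovaries, and its slopes were 0.98 ± 0.15 and 0.71 ± 0.15 per day. Lama2 read -1.86, -0.68, 1.42 and 1.59 and -1.51, -0.92, 0.02 and 0.56, with slopes of 1.24 ± 0.14 and 0.72 ± 0.14. In each of these series the value was higher on each later day. Col6a2, a chain of the main type VI collagen, rose in all 4 groups. Its slopes were 0.76 ± 0.09 in heterozygous and 0.54 ± 0.09 in knockout ovaries, and 0.91 ± 0.09 and 0.80 ± 0.09 in testes. Col3a1 rose by 0.57 ± 0.13 per day in heterozygous ovaries and 0.54 ± 0.13 in heterozygous testes.

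Further genes rose in testes. Col25a1, a membrane-spanning collagen known from the innervation of muscle, read -1.55, 0.03, 2.10 and 2.34 in heterozygous and -1.11, 0.48, 2.44 and 2.71 in knockout testes, with slopes of 1.37 ± 0.20 and 1.34 ± 0.20. Lamb3 (1.17 ± 0.30), Col6a5 (1.08 ± 0.32), Lamc3 (0.51 ± 0.14) and Lamb1 (0.34 ± 0.10) rose in heterozygous testes. All 10 members that rose in knockout testes also rose in heterozygous testes (58.8% of that list of 17, with the overlap over all genes not counted). In ovaries Lamb2 rose in heterozygotes (0.45 ± 0.11) and Lama3 in knockouts (0.94 ± 0.20), where the value at E12.5 was -2.74 and the later ones lay between -0.28 and 0.25. The Lama3 slope was called in 3 of 9 other settings, with values from 0.26 to 1.46.

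Type IX and type II chains, best known from cartilage, were among those that fell. Col9a1 read 3.39, 2.36, -0.16 and -0.12 in heterozygous testes, 3.40, 2.46, 0.09 and -0.88 in knockout testes and 2.30, 1.11, -1.99 and -2.27 in heterozygous ovaries, with slopes of -1.30 ± 0.34, -1.52 ± 0.34 and -1.68 ± 0.34. Knockout ovaries read -2.06, -2.39, -0.57 and -3.26 and were low from the first day. Col9a2 fell in testes (-0.78 ± 0.16 and -0.67 ± 0.16), and Col2a1, the main cartilage collagen, in knockout testes (-1.52 ± 0.37). The Col2a1 slope ran from -2.07 to -0.44 over 9 other settings and was called in 3 of them. The mean log2 ratio of 4 mesonephric markers, cells of the adjoining tissue, ran from -0.43 to 1.0 in heterozygous testes, -0.46 to 0.06 in knockout testes, 0.00 to 0.83 in heterozygous ovaries and -0.19 to 0.59 in knockout ovaries. Among the 4, Lhx1 read 5.23, 4.23, 0.36 and -0.31 in heterozygous testes and 2.80, 2.17, 0.45 and -0.29 in heterozygous ovaries. The means in heterozygous gonads thus followed this 1 gene in large part. In knockout testes Lhx1 read 0.03, -0.19, -0.47 and -0.49. The knockout differences of the 4 in testes ran from -2.66 for Lhx1 to 0.34, with a median of 0.12. In heterozygous testes the slope was called upward for 1 of the 4 and downward for 1. The part of this tissue in the type IX values was not tested. In heterozygous ovaries Nid2 fell (-0.43 ± 0.09) as did Col5a3, called in 3 of 9 other settings (-0.73 ± 0.20), where E12.5 was the high value.

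Slopes differed between heterozygous testes and ovaries for 2 members, 1 upward and 1 downward, where 3.35% of all genes were called (2.23% upward and 1.12% downward), so that the members' 3.57% is close to the share of all genes. Col9a2 fell in testes from 1.68 to -0.36 and in ovaries went from -1.18 to 0.31 (difference -1.25 ± 0.23, adjusted p = 0.0176). Col22a1, a chain of tissue junctions, read -2.08, -1.39, 1.18 and 1.29 in testes and 0.03, -0.09, 0.63 and -0.39 in ovaries (difference 1.32 ± 0.30, adjusted p = 0.0396). Neither was called once any 1 day was left out, which leaves 3 days. In knockouts 0 members were called by limma (0.887% of all genes), and 17 (30.4%) had an unadjusted p under 0.05, beside 11.5% of all genes.

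**Figure D5:**
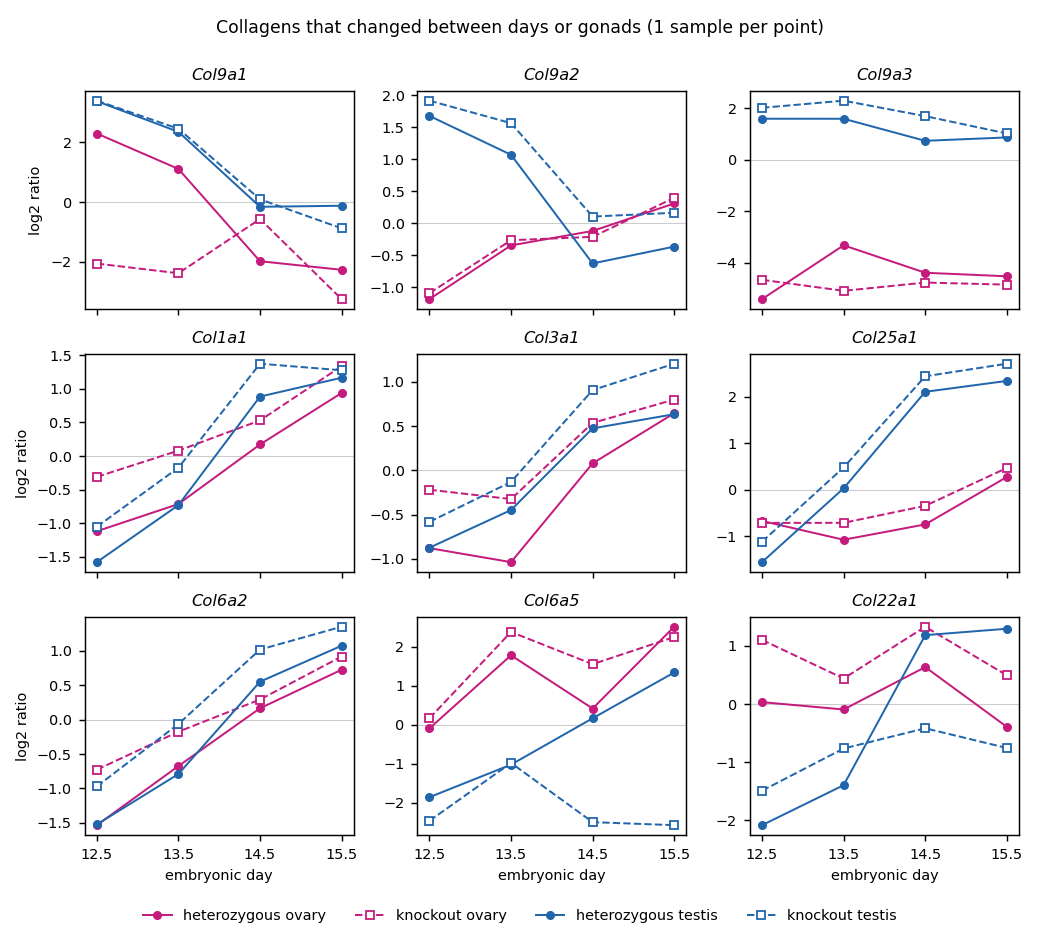
Log2 ratio of 9 collagens (vertical axis, scale set for each gene) by embryonic day in the 4 groups, each point 1 sample and lines joining the days of a group. Col6a2 climbs in all 4 groups, Col9a3 stays high in testes and low in ovaries, and Col22a1 climbs from -2.08 to 1.29 in heterozygous testes.

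A change of the knockout effect with the day was looked for after the data had been seen. In ovaries it was called for 2 members, both downward, where 3.21% of all genes were called (1.85% upward and 1.36% downward). In testes it was called for 3, 1 upward and 2 downward, where 4.11% were called (0.446% upward and 3.66% downward). The members' shares of 3.57% and 5.36% are close to those of all genes. Col1a2, the second chain of type I collagen, was 1.21 higher in knockout ovaries at E12.5 and differed by -0.57 at E15.5 (change -0.60 ± 0.08 per day, adjusted p = 0.0237). Col20a1 changed by -0.54 ± 0.10 per day in ovaries.

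In testes Lamb3 had a knockout difference of 1.49 at E12.5 and of -2.59 at E15.5 (change -1.31 ± 0.14, adjusted p = 0.00865). Its level climbed to 1.75 in the heterozygous testis of E15.5 and was -0.84 in the knockout of that day. Col22a1 went from 0.59 to -2.05 (change -1.01 ± 0.18). Nid2 went the other way, from -0.73 to 0.53 (change 0.43 ± 0.09, adjusted p = 0.0486), but was called in 1 of 9 other settings. It was 0.23 with the arrays as deposited, where 0 members were called upward and 6 downward (10.7%, beside 12.3% of all genes). All genes then split 30 upward and 2009 downward. These fits leave 4 residual degrees of freedom. Without any 1 day 0 of these calls remained in ovaries and at most 1 member was called in testes. Of all genes 0% were then called in ovaries and at most 0.929% in testes.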

How the data were processed

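Gene expression was measured in 16 gonad samples on 1-colour Agilent arrays (Cy3), 1 sample for each sex, genotype and day. Scans were read with Agilent Feature Extraction 9.5, per the submitters' processing notes. The authors deposited linear ratios centred for each probe, with the reference and the combining of replicates not given in the sources used here, so the precision is limited by the number of arrays. The 41267 probes include 93 controls, which were left out, and 32664 of the others carry 1 gene symbol.

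Values at the detection limit were found as ratios shared between probes within a tolerance of 2e-04 (log2). Each array was then shifted, by -0.26 to 0.33, to a common 75th percentile (taken from the 28373 probes never at the limit), values were raised to a common limit, and log2 was taken with no pseudocount. The probes at the limit numbered 1554 to 11174 per sample, and the samples' limits differed by up to 1.08 on the log2 scale.

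Genes above the limit in at least 4 samples were tested with limma 3.58.1 (R 4.3.3), with the trend setting and Benjamini-Hochberg adjustment over 16581 genes. Knockout effects were blocked by sex and day, and sex effects by genotype and day. Same-day samples deviated together, with correlations of 0.478 to 0.758 between genotypes and 0.187 to 0.641 between sexes (8 pairs each). The pairing comes from the day given in the labels. The spread is that between days, with 1 standard error per gene shared by both effects of a kind. In simulated data for the knockout effect in ovaries (16581 genes, 50 changed at each size), 74%, 92%, 96% and 98% were recovered at log2 changes of 1, 2, 3 and 4. Among the unchanged genes 10 were called. Changes below 1 were not simulated, so recovery at the members' called rises in ovaries (0.28 to 0.74) is not known. The design had been written for log2 values or intensities, and the same tests were run on the log2 of the ratios.

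Named with values were the called members, at most the 10 largest per comparison (6 for slopes), and, whatever their values, the type IV, laminin, nidogen, perlecan, agrin, fibronectin, main fibril-forming and type IX genes. Genes of other lists were named only where called. Members, lists and tests were chosen with earlier results of these data known. Alternatives were the arrays as deposited, quantile normalization, no filter, a stricter filter, the mean of all probes, no block, only the samples compared and leaving out each day.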

Additional observations from a re-analysis of the deposited data

Results flagged for a closer look

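In 11 of 215 groups of 4 samples, 1 day stood apart from the other 3 by a gap larger than Dixon's critical share of the group's range, which chance alone gives in about 1 in 20 groups. In knockout ovaries the log2 ratio at E12.5 was high for Col15a1 (0.26, others -0.27 to -0.18), Col17a1 (-0.22, others -0.48 to -0.44) and Fn1 (0.31, others -0.26 to -0.19). At E13.5 it was low there for Col16a1 (-0.28, others 0.14 to 0.22) and Col7a1 (-0.19, others 0.37 to 0.48). In heterozygous ovaries Col5a3 was high at E12.5 (1.72, others -0.64 to -0.26) and Col19a1 low at E14.5 (0.35, others 0.74 to 0.80). In heterozygous testes Col26a1 was high at E12.5 (0.33, others -0.49 to -0.46), Col17a1 high at E15.5 (1.62, others 0.12 to 0.32) and Col6a4 low at E15.5 (-0.95, others -0.02 to 0.05). In knockout testes Col6a5 was high at E13.5 (-0.98, others -2.57 to -2.46). Col17a1, Col26a1, Col6a4, Col7a1 and Col19a1 are named here because of these values.

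Tested differences between groups add 7 results, each with a limma adjusted p under 0.05. The slope per day was higher in heterozygous testes than in ovaries for Col22a1 (1.32) and lower for Col9a2 (-1.25). The knockout effect changed with the day in ovaries for Col1a2 (-0.60 per day) and Col20a1 (-0.54), and in testes for Lamb3 (-1.31), Col22a1 (-1.01) and Nid2 (0.43).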

How the results depend on the processing

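No value among the named members changed sign in a call under any alternative. Of 139 member calls, 73 remained with the arrays as deposited, 127 with quantile normalization, 127 with the mean of all probes, 108 with no filter and 136 of 137 with the stricter filter. Of 85 calls 23 remained without the block by day (no replicate block) and 61 when only the samples compared were fitted. Leaving out 1 day kept 48 to 63. Without the block, members called numbered 11 for the sex effect in heterozygotes (19.6%, beside 16.1% of all genes) and 11 in knockouts (19.6%, beside 12.4%). For the knockout effect they numbered 1 in ovaries (1.79%, beside 6.90%) and 0 in testes (beside 6.25%). With the arrays as deposited 0 members were called for the knockout effect in ovaries, beside 13.9% of all genes. In testes 1 was called (1.79%, beside 11.7%). For the slope in knockout testes 8 were called (14.3%, beside 3.15%). The knockout effect in testes moved with the day for 6 members, 0 upward and 6 downward (10.7%, beside 12.3%). Only the samples compared gave 13 for the knockout effect in ovaries (23.2%, beside 21.6% of all genes). Quantile normalization gave 5 for the slope in knockout ovaries, 1 for the slope difference between the sexes in each genotype, 1 (downward) for the change of the knockout effect in testes, and 1 upward and 2 downward in ovaries. With no filter, 1 was called for the slope in knockout ovaries (1.69%, beside 2.48% of all genes) and 7 in knockout testes (11.9%, beside 3.61%). For the slope difference in heterozygotes 1 was called (1.69%, beside 3.79%). For the change of the knockout effect 0 were called in either sex (beside 0.225% in ovaries and 0.676% in testes). The mean of all probes gave 4 for the slope in knockout ovaries (7.14%, beside 3.85% of all genes) and 1 for the slope difference in knockouts (1.79%, beside 1.17%). The cause of these changes was not tested.

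Without 1 day, the share of all genes called moved as well. For the sex effect in heterozygotes 10 to 22 members were called (17.9% to 39.3%, beside 8.76% to 32.4% of all genes). In knockouts 9 to 19 were called (16.1% to 33.9%, beside 8.67% to 21.1%). The knockout effect gave 2 to 20 in ovaries (3.57% to 35.7%, beside 9.35% to 30.1%) and 2 to 23 in testes (3.57% to 41.1%, beside 9.46% to 31.6%). Its difference gave 0 to 4 (0% to 7.14%, beside 0% to 6.77%). Slopes gave 0 to 11 in heterozygous ovaries (0% to 19.6%, beside 0.283% to 7.77%) and 0 to 2 in knockout ovaries (0% to 3.57%, beside 0% to 3.08%). They gave 2 to 18 in heterozygous testes (3.57% to 32.1%, beside 1.57% to 17.0%) and 0 to 12 in knockout testes (0% to 21.4%, beside 0% to 6.79%). Their difference gave 0 in both genotypes (beside at most 2.03% of all genes in heterozygotes and 0.965% in knockouts). The change of the knockout effect gave 0 in ovaries (0% of all genes) and 0 to 1 in testes (0% to 1.79%, beside 0.012% to 0.929%). These fits have 3 days and fewer residual degrees of freedom.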

Other observations

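Genes that make, bind and break down the matrix were called at shares from below to above those of all genes, which were 23.8% for the sex effect in heterozygotes and 33.8% and 34.3% for the knockout effect in ovaries and testes. Of 26 tested genes of collagen maturation, 4 were higher and 1 lower in heterozygous testes than in ovaries (19.2%), led by the collagen cross-linking enzyme gene Plod2 (1.05 ± 0.12) and the procollagen processing enhancer Pcolce (1.18 ± 0.15). In knockouts 6 rose and 2 fell in ovaries (30.8%) and 13 rose and 2 fell in testes (57.7%). The falls were Pcolce2 (-1.51 ± 0.36 in ovaries and -3.49 ± 0.36 in testes) and Tram2 (-0.89 ± 0.21 and -1.37 ± 0.21). Of 23 matrix receptor genes, 4 were higher and 4 lower in heterozygous testes (34.8%), among them the integrin chains Itga9 (1.54 ± 0.17), Itgb8 (1.60 ± 0.22) and, lower, Itga6 (-0.83 ± 0.14), the alpha chain of a laminin receptor. In knockouts 8 rose and 0 fell in ovaries (34.8%) and 9 rose and 1 fell in testes (43.5%), the fall being Sdc4 (-0.97 ± 0.19).

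Large sex differences stood among 36 other basement membrane and matrix genes, of which 11 were higher and 5 lower in heterozygous testes (44.4%). The matricellular gene Smoc2 was higher (4.54 ± 0.19, adjusted p = 3.84e-06), as was Tinagl1 (2.41 ± 0.18), and Thbs2 (-3.87 ± 0.22) and Papln (-2.86 ± 0.13) were lower. In knockouts 19 rose and 4 fell in ovaries (63.9%) and 19 rose and 2 fell in testes (58.3%), with the guidance and matrix gene Ntn1 at -2.71 ± 0.27 in testes. The matrilin gene Matn3 did not exceed the detection limit in any of the 4 knockout ovaries and was at least 4.84-fold lower there. Of 24 genes of matrix breakdown and its inhibitors, 14 rose and 1 fell in knockout ovaries (62.5%) and 16 rose and 0 fell in testes (66.7%), among them Timp1 (0.61 ± 0.11 and 0.68 ± 0.11). Between the sexes Adamts5 was higher (2.52 ± 0.38) and Adamts19 lower (-1.79 ± 0.19) in heterozygous testes.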
